A study of Mus musculus with 6 samples.

Results

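The axon guidance genes were taken as the non-control probes whose gene symbol starts with Epha, Ephb, Efna, Efnb, Sema, Plxn, Nrp, Slit, Robo, Ntn or Unc5 followed by a letter or digit, together with Dcc, with the Slitrk genes left out. This gave 48 genes, each with 1 probe, of 20868 probes on the array: 44 were named through their RefSeq accession and 4 by the symbol in the probe's description. One more probe, Unc50, fits the letters but belongs to another protein family and was set apart. The study compared CD34+ with CD34- keratinocytes of the mouse. Skin of mice aged 7 weeks was digested with trypsin, and the epidermal cells were sorted by flow cytometry into alpha6+CD34+ cells, which the labels call stem and progenitor cells, and alpha6+CD34- cells, which they call basal cells. CD34 marks the bulge of the mouse hair follicle, and the alpha-6 integrin, by which both populations were chosen, marks cells on the basement membrane. There were 3 biological replicates, and the RNA of both populations of a replicate was hybridised together on 2 arrays with the Cy3 and Cy5 dyes exchanged, so n is 3 throughout. The labels give no strain or sex and do not say how many animals made up a replicate.

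Axon guidance proteins are cues and receptors that were first studied in growing nerves and also act between epithelial cells, blood vessels and their surroundings. Ephrins are membrane-bound ligands of the Eph receptor tyrosine kinases and signal where cells touch. Semaphorins bind plexins, and most of the secreted semaphorins, which form class 3 in vertebrates, do so together with a neuropilin. Some netrins, such as Ntn1, bind Dcc and the Unc5 receptors, and Slits bind members of the Robo family. These pairings do not hold for every gene of a family. The receptors act on small GTPases and on the actin cytoskeleton.

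Among the 46 genes tested, those that passed the threshold for a difference between the sorted populations were all class 3 semaphorins. Sema3e was 5.67-fold higher in CD34+ cells and Sema3b was 1.40-fold higher, while Sema3c was 1.73-fold lower and Sema3f was 1.69-fold lower. The other 42 of 46 genes tested did not pass, a group that holds every ephrin, Eph receptor, plexin, netrin, netrin receptor, Slit and Robo gene of the 46. A pass here is a Benjamini-Hochberg adjusted p under 0.05 from limma, fitted over all 20079 features. Over all features, 5.41% passed as higher in CD34+ cells, 6.64% as lower and 12.1% in either direction. The 4 of 46 axon guidance genes that passed are no larger a share than this. Probes that name a guidance protein in words only are counted separately below. Among them, probes described as plexin 2, M-Sema F, semaphorin 5B and an UNC5H2 homolog passed outside class 3. The median log2 ratio of the 46 was 0.01, against 0.00 over all features. Their median absolute log2 ratio was 0.07, against 0.10 over all features, and 37 of the 46 lay within 0.2 of 0. An absolute log2 ratio over 0.5 was reached by 4 of the 46 (Sema3e, Sema3c, Sema3f and Epha2), beside 9.52% of all features.

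**Figure D1:**
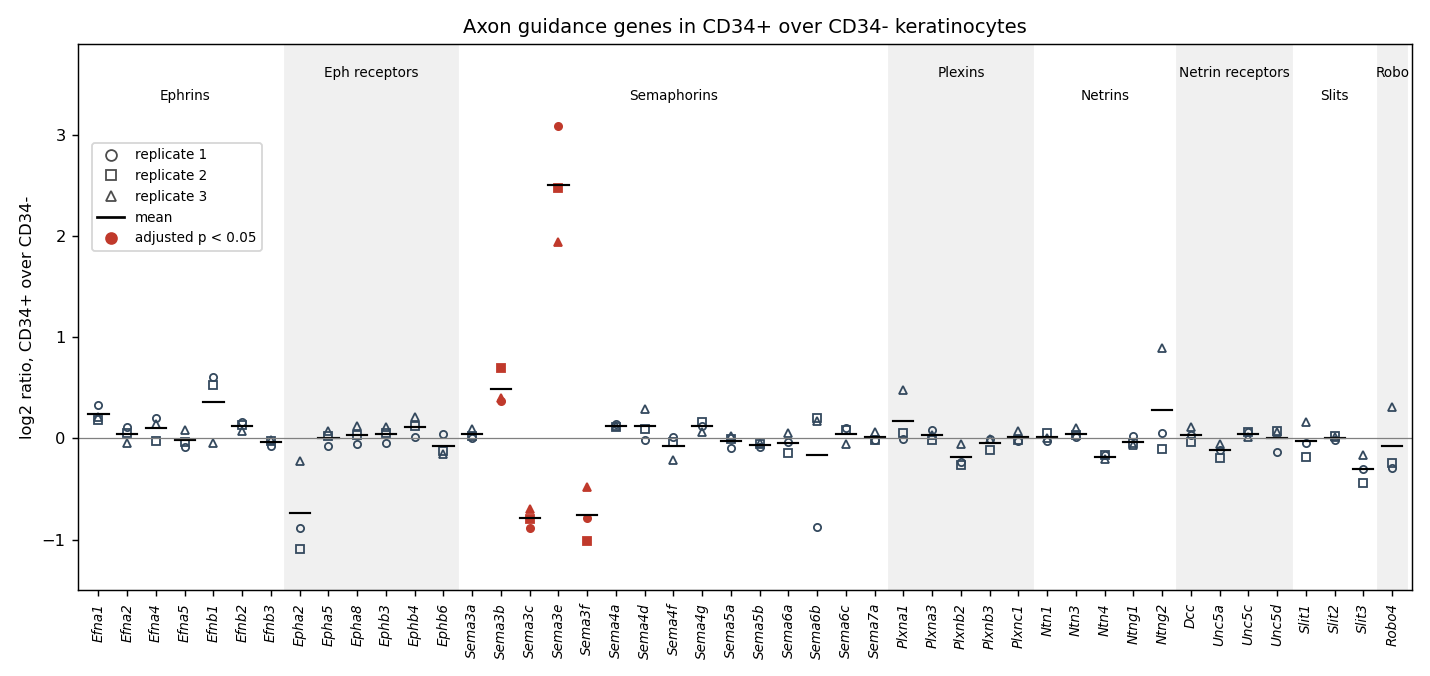
Log2 ratio of CD34+ over CD34- signal for each of the 46 axon guidance genes tested, grouped by family. Symbols are the 3 replicates, bars are their means, and filled red symbols mark the genes with adjusted p under 0.05 (Sema3e and Sema3b above 0, Sema3c and Sema3f below 0).

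The upstream sequences of Sema3e and Sema3c, both on chromosome 5, are shown because these genes have the largest log2 ratio in each direction among the 46 genes. They are the 250 bases before the annotated start in RefSeq (assembly GRCm38.p6, plus strand), at chr5:14025026-14025275 for Sema3e and chr5:17574566-17574815 for Sema3c. Capitals mark matches on either strand to GGGCGG (a GC box) or to CTTTGA (a core of Tcf/Lef sites).
Sema3e: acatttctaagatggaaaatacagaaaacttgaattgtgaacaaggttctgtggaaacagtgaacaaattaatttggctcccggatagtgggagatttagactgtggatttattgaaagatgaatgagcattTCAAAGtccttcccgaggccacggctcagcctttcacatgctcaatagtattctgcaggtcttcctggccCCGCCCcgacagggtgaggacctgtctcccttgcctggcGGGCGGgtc
Sema3c: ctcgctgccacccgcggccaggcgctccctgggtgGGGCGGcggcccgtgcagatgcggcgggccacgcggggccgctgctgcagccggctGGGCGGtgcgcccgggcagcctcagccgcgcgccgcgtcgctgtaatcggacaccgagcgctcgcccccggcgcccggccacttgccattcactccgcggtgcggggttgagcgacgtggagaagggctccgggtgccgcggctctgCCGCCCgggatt

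The Sema3e stretch has 48% G and C and the Sema3c stretch 78.4%, against a median of 52.4% over the 32851 promoters of that table. GGGCGG matched 2 times in Sema3e and 3 times in Sema3c, and 32.7% of all these promoters hold it. CTTTGA matched 1 time in Sema3e and 0 times in Sema3c, and 13.8% hold it. TAATTA, a homeobox core, and AGGTGT, a core of T-box sites, matched 0 times in both, and 4.84% and 11.8% of all promoters hold them. The last 3 of these motifs were searched because Tcf7l1, Lhx2 and Tbx1, transcription factors of these classes, are on the bulge list below. A shorter homeobox core, AATTA, is not part of these counts, and the Sema3e stretch holds it.

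Sema3e encodes a secreted semaphorin that binds plexin D1 directly, without a neuropilin. Its normalised signal was 1192, 875 and 504 in CD34+ cells of replicates 1, 2 and 3, against 140, 158 and 131 in the CD34- cells of the same replicates. The populations did not overlap, and the CD34+ signal was the less even of the 2. The log2 ratios were 3.09, 2.47 and 1.95, with a mean of 2.50 ± 0.57 (SD, n = 3) and a limma adjusted p of 0.0169, higher on 6 of 6 arrays. Of the 20079 features, 0.164% had a larger absolute log2 ratio.

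Sema3b encodes another secreted semaphorin, which signals through neuropilins. Its signal was 169, 184 and 160 in CD34+ cells, against 130, 114 and 122 in CD34- cells. The lowest CD34+ value lay above the highest CD34- value. The mean log2 ratio was 0.49 ± 0.18 (SD, n = 3), higher on 6 of 6 arrays, with a limma adjusted p of 0.0370. This call is lost with only the arrays that carried CD34+ in Cy5 (log2 ratio 0.40, limma adjusted p 0.0543) and when the populations are not paired within replicates (limma adjusted p 0.0825).

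Sema3c, which acts through neuropilins and is best known from the developing heart outflow tract, was lower in CD34+ cells. Its signal was 177, 173 and 165 in CD34+ cells, against 327, 299 and 267 in CD34- cells. The log2 ratio averaged -0.79 ± 0.09 (SD, n = 3), lower on 6 of 6 arrays, with a limma adjusted p of 0.0121. Its replicates were the closest together of the 4 genes that passed.

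Sema3f, a ligand of neuropilin-2, had a signal of 132, 118 and 148 in CD34+ cells, against 227, 239 and 206 in CD34- cells. The ranges did not overlap. Its log2 ratio averaged -0.76 ± 0.27 (SD, n = 3), lower on 6 of 6 arrays, with a limma adjusted p of 0.0308. Sema3b and Sema3f went in opposite directions although they are close neighbours on chromosome 9, with 3 protein-coding genes between them in assembly GRCm38.p6.

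Sema3a, the remaining class 3 semaphorin with a member probe and the founding member as a repellent of sensory axons, did not pass. Its signal was 61.2, 66.1 and 84.7 in CD34+ cells, against 61.2, 65.2 and 79.1 in CD34- cells, with a mean log2 ratio of 0.04 ± 0.05 (SD, n = 3). The signal was well above background on 4 of 6 arrays in CD34+ cells and on 3 of 6 in CD34- cells, so a difference at this level may not be measurable. All signals carry the offset of 50 that the background correction adds, which draws the ratio of a dim probe towards 0. With the ratios the authors deposited, which carry no such offset, the log2 ratios were 3.10 for Sema3e, 0.78 for Sema3b, -1.05 for Sema3c and -1.13 for Sema3f, and the same 4 genes passed.

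**Figure D2:**
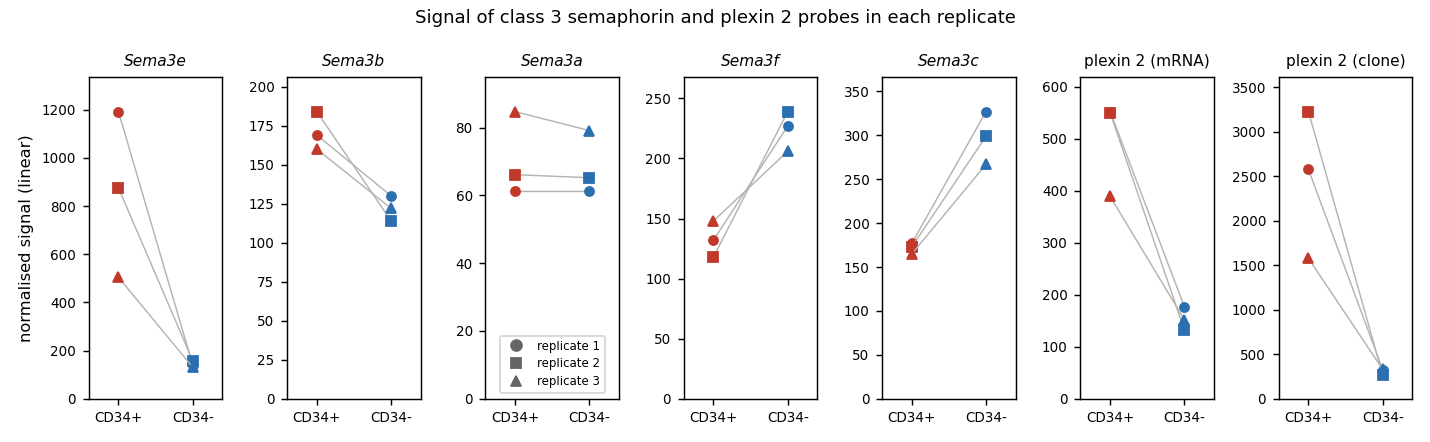
Normalised signal on a linear axis in CD34+ cells (left, red) and CD34- cells (blue) for the 5 class 3 semaphorins and for 2 probes described as plexin 2. Lines join the populations of a replicate, and each panel has its own axis starting at 0: Sema3e, Sema3b and both plexin 2 probes are higher in CD34+ cells in every replicate, Sema3f and Sema3c are lower in every replicate, and Sema3a lies near the background.

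With replicate 1 or replicate 2 left out, none of the 4 calls held: limma adjusted p values were 0.0900 to 0.136 without replicate 1 and 0.0552 to 0.122 without replicate 2, on 2 replicates. Without replicate 1, 0 of all features passed, so that fit could keep no call of any gene. Without replicate 2, 135 of all features passed as higher and 168 as lower, against 1086 and 1334 as reported. These losses are thus not particular to the 4 genes. Without replicate 3, all 4 passed. The direction of the 4 genes was the same in all 18 alternatives. Adjusted p values over the alternatives ran from 0.000344 to 0.0900 for Sema3e, from 0.00403 to 0.122 for Sema3b, from 0.00109 to 0.0900 for Sema3c and from 0.00221 to 0.136 for Sema3f.

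**Figure D3:**
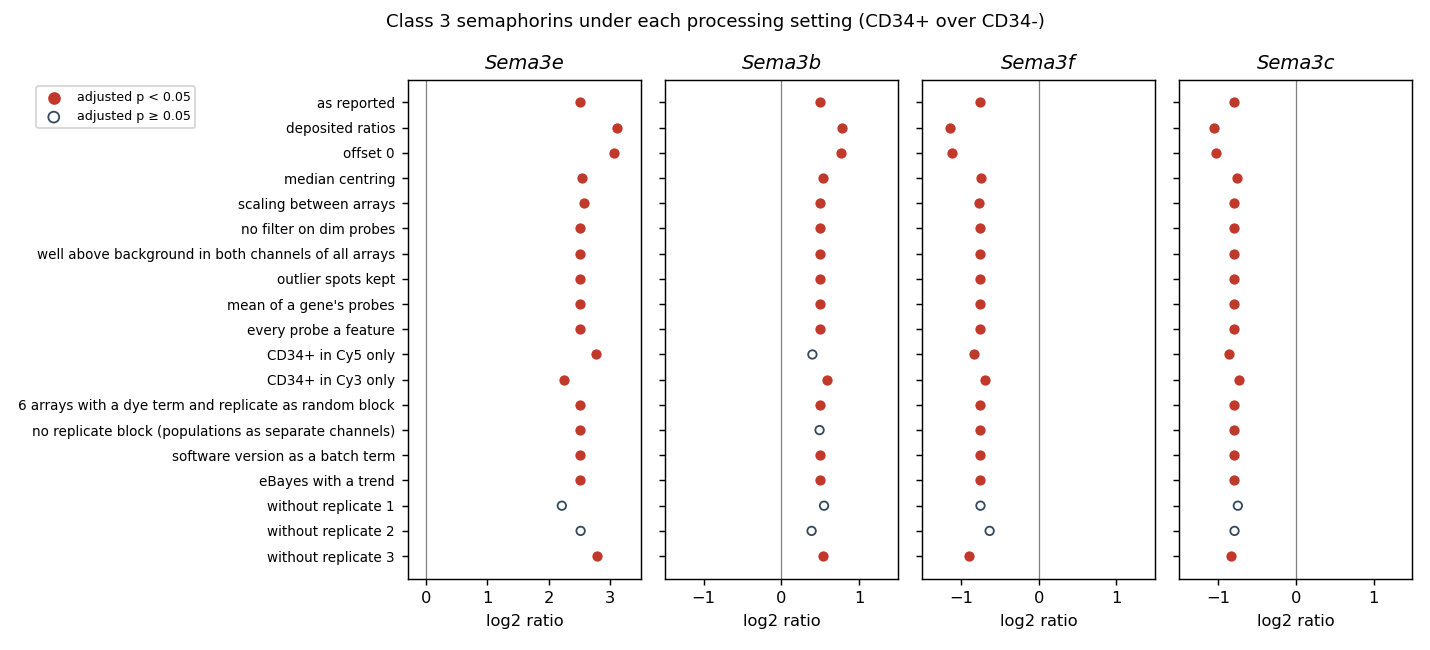
Mean log2 ratio of CD34+ over CD34- for the 4 semaphorins that passed, as reported (top) and under 18 other processing settings. Filled symbols have adjusted p under 0.05 and open symbols do not: the sign is the same in every setting, and calls are lost without replicate 1 or 2 and, for Sema3b, in 2 further settings.

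The semaphorins outside class 3, which are membrane-bound, showed 0 of 10 passing, with 1 gene at an unadjusted limma p under 0.05 and a range of log2 ratios from -0.16 to 0.12. That gene was Sema4a, a transmembrane semaphorin studied mainly in immune cells. Its signal was 400, 408 and 742 in CD34+ cells, against 364, 377 and 683 in CD34- cells, and its log2 ratio was 0.12 ± 0.01 (SD, n = 3, limma adjusted p 0.143). The difference was small and the same in each replicate, and the ranges overlapped because replicate 3 was brighter in both populations. Sema4d and Sema4g had log2 ratios of 0.12 each, and Sema7a, which carries a membrane anchor of lipid, 0.01. Median log2 ratios were 0.12 over the 4 class 4 genes, -0.04 over the 2 class 5 genes and -0.04 over the 3 class 6 genes.

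Sema6b, a transmembrane ligand of A-type plexins, had the widest spread of the semaphorins that did not pass. Its log2 ratios were -0.87, 0.20 and 0.18 in replicates 1, 2 and 3. The 3 arrays with CD34+ in Cy5 gave -1.90, -0.22 and -0.28, and the 3 with CD34+ in Cy3 gave 0.15, 0.63 and 0.63. The ratio of this probe thus moved with the dye in each replicate.

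Plexins, the main semaphorin receptors, showed 0 of 5 passing, with log2 ratios from -0.18 to 0.18. Plxnb2, a receptor of class 4 semaphorins, had a signal of 240, 282 and 266 in CD34+ cells, against 283, 338 and 275 in CD34- cells. Its log2 ratio of -0.18 ± 0.11 (SD, n = 3) was below 0 on 6 of 6 arrays but did not pass (limma adjusted p 0.140). Plxna1, a co-receptor of class 3 semaphorins, stood at 1594, 1608 and 2514 in CD34+ cells, against 1598, 1547 and 1802 in CD34- cells. Its difference lay in replicate 3 alone, whose log2 ratio was 0.48. Nrp1, the neuropilin-1 gene, was well above background on 1 of 6 arrays in each population and was not tested.

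Further probes name a guidance protein in the words of their description but carry no symbol that the naming rule accepts. There were 18 such probes, picked from the descriptions alone, and they are not counted among the 48 genes. Of the 16 that could be tested, 3 passed as higher in CD34+ cells and 3 as lower. This is 3 of 16 in each direction, beside 5.41% and 6.64% of all features.

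Both of the largest were probes described as plexin 2, a name that RefSeq lists as a synonym of Plxna2, a co-receptor of class 3 semaphorins and direct receptor of class 6. The probe to a cloned sequence had a signal of 2575, 3225 and 1577 in CD34+ cells, against 326, 265 and 330 in CD34- cells. Its log2 ratio was 2.95 ± 0.67 (SD, n = 3), higher on 6 of 6 arrays, with a limma adjusted p of 0.0168. The probe to the named mRNA had 552, 550 and 389 in CD34+ cells, against 177, 132 and 152 in CD34- cells. Its log2 ratio was 1.68 ± 0.35 (SD, n = 3), higher on 6 of 6 arrays, with a limma adjusted p of 0.0153. The populations did not overlap on either probe. A further probe described as similar to plexin 2 had a log2 ratio of 0.04 ± 0.14 (SD, n = 3) and did not pass, so the probes that carry this name disagree, and which transcripts each one reads is not given in the sources used here.

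Among the probes described in words, 2 semaphorins were lower in CD34+ cells. M-Sema F, listed by RefSeq as a synonym of Sema4c, a transmembrane ligand of plexin B2, had a signal of 519, 490 and 552 in CD34+ cells, against 940, 932 and 1049 in CD34- cells. Its log2 ratio was -0.90 ± 0.04 (SD, n = 3), lower on 6 of 6 arrays, with a limma adjusted p of 0.00794. The spread between its replicates was small beside the difference. A probe described as a homolog of semaphorin 3D, of the secreted class 3, had 101, 94.6 and 99.5 in CD34+ cells, against 166, 150 and 169 in CD34- cells. Its log2 ratio was -0.72 ± 0.05 (SD, n = 3), lower on 6 of 6 arrays, with a limma adjusted p of 0.0118.

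The third that was lower is described as a homolog of UNC5H2, a synonym of Unc5b, which encodes a netrin receptor. Its signal was 159, 99.7 and 129 in CD34+ cells, against 214, 181 and 210 in CD34- cells, with a log2 ratio of -0.66 ± 0.22 (SD, n = 3) and a limma adjusted p of 0.0294, lower on 6 of 6 arrays. A probe described as semaphorin 5B was higher at 0.36 ± 0.12 (SD, n = 3, limma adjusted p 0.0408), with 110, 118 and 115 in CD34+ cells, against 92.5, 84.4 and 91.5 in CD34- cells. The member probe of Sema5b gave a log2 ratio of -0.06 and did not pass, so these probes disagree too. With median centring in place of loess the 5B probe did not pass (limma adjusted p 0.0671). Without replicate 1 none of these 6 probes passed, and neither did any other feature. Without replicate 2 both plexin 2 probes and M-Sema F passed.

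A probe described as neuropilin-2, the co-receptor of Sema3f and Sema3b, did not pass. Its signal was 102, 167 and 161 in CD34+ cells, against 98.0, 152 and 154 in CD34- cells, with a log2 ratio of 0.09 ± 0.05 (SD, n = 3). Of the other probes described in words, Eph receptor A4, a receptor of both ephrin classes, had a log2 ratio of 0.02, and ephrin A3 had 0.31 ± 0.19 (SD, n = 3, limma adjusted p 0.0968).

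The ephrins, ligands held in the membrane, showed 0 of 7 passing, with a median log2 ratio of 0.10. In each replicate the median of the 7 was above 0, at 0.16, 0.05 and 0.08, while the medians over all features were -0.00, 0.00 and 0.01. Without replicate 1 the median of the 7 was 0.06, the same as that of the Eph receptors to 2 decimals, and with CD34+ in Cy3 only it was 0.05, below the 0.09 of the Eph receptors. Efna1, the main ligand of Epha2, had a signal of 655, 662 and 431 in CD34+ cells, against 522, 582 and 373 in CD34- cells. It was higher on 6 of 6 arrays with a log2 ratio of 0.24 ± 0.07 (SD, n = 3), just outside the threshold (limma adjusted p 0.0576). Efnb1, a ligand of the EphB receptors, had 2665, 1783 and 2555 in CD34+ cells, against 1753, 1234 and 2628 in CD34- cells. It was higher in replicates 1 and 2 and not in replicate 3, and its log2 ratio of 0.36 ± 0.35 (SD, n = 3) had a limma adjusted p of 0.186. Without replicate 3 Efnb1 passed at a log2 ratio of 0.57.

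The Eph receptors showed 0 of 6 passing. Epha2, an Eph receptor of epithelia, had the largest absolute log2 ratio of the genes that did not pass. Its signal was 229, 210 and 200 in CD34+ cells, against 423, 446 and 234 in CD34- cells. The CD34+ values were all below the CD34- values, but the gap in replicate 3 was much smaller. The log2 ratios were -0.89, -1.09 and -0.23, with a mean of -0.73 ± 0.45 (SD, n = 3) and a limma adjusted p of 0.0795. Without replicate 3 the mean was -0.99 and the adjusted p was 0.0053. The other 5 Eph receptors tested, Epha5, Epha8, Ephb3, Ephb4 and Ephb6, had log2 ratios from -0.08 to 0.12. Epha6 was not tested because 1 array marked its spot as an outlier, and its mean log2 ratio over the remaining arrays was -0.03.

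The netrins, secreted or membrane-anchored laminin-related cues, showed 0 of 5 passing. Ntn4, a netrin of basement membranes, had a signal of 71.5, 70.8 and 67.4 in CD34+ cells, against 80.2, 79.2 and 77.8 in CD34- cells. The populations did not overlap and the log2 ratio of -0.18 ± 0.02 (SD, n = 3) was below 0 on 6 of 6 arrays, but its limma adjusted p was 0.0754. On the deposited ratios, without the offset, Ntn4 had a log2 ratio of -0.62 and passed (limma adjusted p 0.0162). With median centring its log2 ratio was -0.10 and it did not pass (limma adjusted p 0.567). The Ntn4 probe was dim, and was well above background on 5 of 6 arrays in CD34+ cells and on 6 of 6 in CD34- cells. Ntng2, a netrin held in the membrane, stood out in replicate 3, with a log2 ratio of 0.90 beside 0.06 and -0.10. Of the 2 arrays of replicate 3, 1 gave 1.75 and the other 0.04, so that value rests on a single array. The Ntng2 probe was well above background on 5 of 6 arrays in each population.

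The netrin receptors showed 0 of 4 passing. Dcc, Unc5c and Unc5d had log2 ratios of 0.04, 0.05 and 0.00. Unc5a had a signal of 301, 307 and 300 in CD34+ cells, against 325, 349 and 312 in CD34- cells, and its log2 ratio of -0.12 ± 0.07 (SD, n = 3) did not pass (limma adjusted p 0.203). Dcc, Unc5c, Unc5d and Ntn1, like Ntn4 and Ntng2, were not well above background on every array.

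The Slits, secreted ligands of Robo receptors, showed 0 of 3 passing. Slit3 had a signal of 160, 127 and 151 in CD34+ cells, against 198, 172 and 169 in CD34- cells, with a log2 ratio of -0.30 ± 0.14 (SD, n = 3, limma adjusted p 0.0675), lower on 6 of 6 arrays. Slit1 and Slit2 had log2 ratios of -0.02 and 0.01. Robo4, a receptor known from endothelium, had 236, 227 and 163 in CD34+ cells, against 290, 269 and 132 in CD34- cells. Its replicates went in different directions, with log2 ratios of -0.30, -0.24 and 0.31, and it did not pass (limma adjusted p 0.754).

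Set side by side, the semaphorins had 4 of 15 genes passing and the other families 0 of 31, beside 12.1% of all features. Within the semaphorins, class 3 had 4 of 5 passing with a median absolute log2 ratio of 0.76, against 0 of 10 and 0.07 outside class 3. No test of the families themselves was made, and these counts cover the 46 genes only: among the probes described in words, both plexin 2 probes, the UNC5H2 homolog, M-Sema F and semaphorin 5B passed outside class 3. Outside class 3 the number of the 41 genes that passed was 5 without replicate 3. It was 7 with a batch term for the scanner software, which takes the deviation of replicate 3 out of the spread. With the 6 arrays in a single model, with a dye term and the replicate as a random block, it was 3. It was 1 each on the deposited ratios, with an offset of 0 and with CD34+ in Cy3 only. Of all features, 2043, 2573, 1952, 1120, 1199 and 962 passed as higher in these settings, in the same order, against 1086 as reported. Those that passed as lower were 2155, 2732, 2302, 1408, 1437 and 1199, against 1334 as reported. At an unadjusted limma p under 0.05 there were 5 semaphorins, 2 ephrins, and 1 gene each among the Eph receptors, plexins, Slits and netrins, in all 11 of 46, beside 30.7% of all features. The populations did not overlap for 8 of the 46 genes, beside 16.2% of all features, and 12 of 46 had the same sign on all 6 arrays, beside 32.2%. Outside class 3, those 8 with the same sign on all arrays were Epha2, Efna1, Unc5a, Ntn4, Plxnb2, Sema4a, Sema5b and Slit3.

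**Figure D4:**
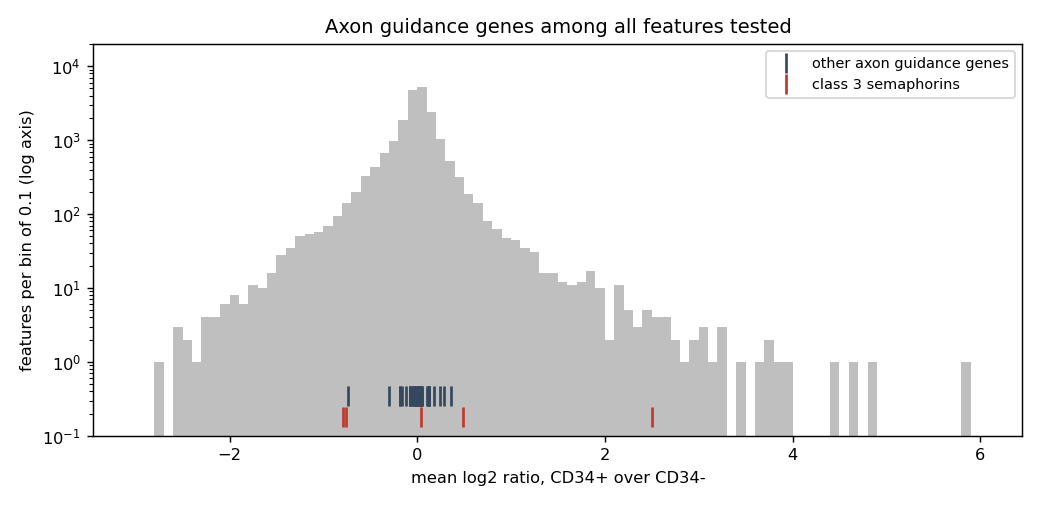
Number of features in bins of the mean log2 ratio of CD34+ over CD34- (grey, log axis), with the class 3 semaphorins (red ticks) and the other axon guidance genes (blue ticks) marked below. Sema3e at 2.50 lies far from the bulk of features, while the genes outside class 3 lie between -0.73 and 0.36.

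A list of 81 co-receptors, adaptors and effectors of these receptors had 48 genes that could be tested, of which 7 were higher in CD34+ cells, 5 were lower and 36 did not pass, beside 5.41% and 6.64% of all features that were higher and lower. Its median log2 ratio was -0.02, against 0.00 over all features. Ngef, a guanine nucleotide exchange factor that acts downstream of EphA receptors, was the highest. Its signal was 1168, 1259 and 778 in CD34+ cells, against 292, 288 and 346 in CD34- cells, with a log2 ratio of 1.77 ± 0.52 (SD, n = 3) and a limma adjusted p of 0.0217. Enah and Evl, actin regulators of the Ena/VASP family, were higher by similar amounts, with log2 ratios of 0.64 ± 0.03 and 0.63 ± 0.08 (SD, n = 3) and limma adjusted p of 0.0121 and 0.0148. Sdc1, a cell-surface heparan sulphate proteoglycan, had a log2 ratio of 0.72 ± 0.19 (SD, n = 3, limma adjusted p 0.0213). These 4 genes were higher on 6 of 6 arrays.

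Chl1, an adhesion molecule of the L1 family that binds neuropilin-1, was the lowest of the list. Its signal was 438, 431 and 445 in CD34+ cells, against 795, 880 and 571 in CD34- cells, with a log2 ratio of -0.75 ± 0.35 (SD, n = 3, limma adjusted p 0.0467). Rhoa, the GTPase that drives actin contraction, had 912, 696 and 698 in CD34+ cells, against 1157, 1338 and 1164 in CD34- cells, with a log2 ratio of -0.67 ± 0.30 (SD, n = 3, limma adjusted p 0.0456). Gpc1, a glypican that binds Slits, was lower at -0.62 ± 0.09 and Pak1, a kinase activated by Rac and Cdc42, at -0.42 ± 0.16 (SD, n = 3), with limma adjusted p of 0.0168 and 0.0409. The remaining genes that passed were Rras, Cntn2 and Neo1, a netrin receptor related to Dcc, at 0.57, 0.31 and 0.29, and Gipc2 at -0.34. Without replicate 1, and likewise without replicate 2, no gene of the list passed (limma), with 19 and 16 genes at an unadjusted p under 0.05. Of all features, 0 passed without replicate 1, with 4615 at that unadjusted level. Without replicate 2, 135 passed as higher and 168 as lower, with 3366 at that level. The calls of Rhoa, Chl1 and Pak1 were lost in 7, 5 and 6 of the 18 alternatives, with limma adjusted p of up to 0.15, 0.181 and 0.618. Rhoa also did not pass without replicate 3 (0.0657). Without the pairing of a replicate, Enah, Sdc1 and Gpc1 did not pass either (0.198, 0.0624 and 0.215).

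**Figure D5:**
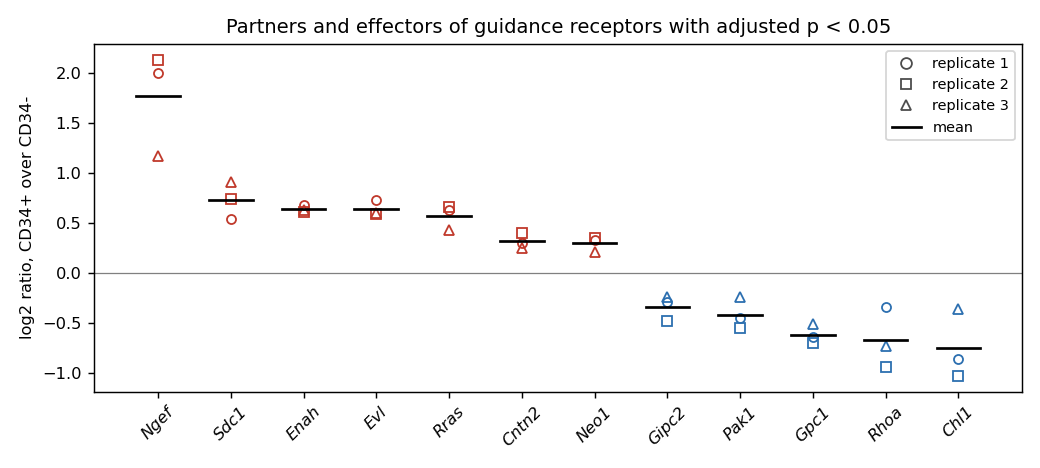
Log2 ratio of CD34+ over CD34- for the 12 co-receptors and effectors with adjusted p under 0.05, from the highest mean to the lowest. Symbols are the 3 replicates and bars their means: all replicates of a gene lie on the same side of 0.

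The sort was checked on the arrays. Cd34, the antigen of the sort, had a log2 ratio of 5.84. Of 11 bulge genes listed, 9 could be tested, Cd34 among them. All 9 passed as higher, at a median of 2.73, beside 5.41% of all features. The list was chosen with earlier results of these data known, so its count is not an independent check. The probe for the alpha-6 integrin, the antigen both populations were gated on, was lower in CD34+ cells at -1.18 (limma adjusted p 0.0180). Since several guidance genes are also expressed by vessels, nerves and fibroblasts, markers of those cells were set beside the results. Of 15 endothelial genes tested, 1 was higher (Egfl7, 0.44) and 3 had an unadjusted limma p under 0.05, with a median log2 ratio of 0.00 over the 15. Beside each of these lists stand the shares over all features. An unadjusted limma p under 0.05 was reached by 30.7%, while 5.41% passed as higher and 6.64% as lower. Emcn and Sox18, at 0.41 and 0.18, were higher on 6 of 6 arrays but did not pass. Pecam1 and Cdh5 had log2 ratios of -0.00 and -0.06. Pecam1 was well above background on 5 of 6 arrays in CD34+ cells and on 4 of 6 in CD34- cells. The summed endothelial signal, which includes the offset of every probe, was 2983 to 3910 in CD34+ cells, against 2864 to 3516 in CD34- cells. Of 5 fibroblast genes, Col1a2 and Fbln1 were higher, at 1.02 and 1.80. The other 3, Dcn, Pdgfra and Pdgfrb, did not pass, with log2 ratios of -0.00, 0.07 and -0.10. The summed signal of the 5 was 1468 to 2896 in CD34+ cells, against 760 to 1066 in CD34- cells. Fbln1 and Col1a2 were the brightest probes in that sum in every replicate, so it mainly repeats their difference. Of 8 melanocyte genes, 2 were higher, and of 7 Schwann cell and nerve genes none passed (1 at an unadjusted limma p under 0.05). Of 6 Langerhans and myeloid genes 1 was lower, and of 5 T cell genes 1 was higher (3 at an unadjusted limma p under 0.05). Of 4 genes on a keratinocyte list, Trp63, Cdh1, Krt15 and Perp, none passed (3 at an unadjusted limma p under 0.05). Krt15 had a log2 ratio of 0.77 (limma adjusted p 0.0934). Its probe was marked as saturated 9 times over the arrays and dyes, which limits what can be measured there. The part of other cells in the semaphorin results was not tested. In sorted bulk samples, fewer cells of a type and less RNA per cell cannot be told apart.

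The arrays of replicate 3 were read with an earlier version of the scanner software than those of replicates 1 and 2, and their log2 ratios correlated less with each other across features (r of 0.673, against 0.910 and 0.859 within replicates 2 and 1). Between 92.9% and 97.7% of probes were well above background on an array. Leaving out replicate 3 keeps to the later version alone, and then 3 axon guidance genes passed as higher (Sema3e, Sema3b and Efnb1) and 6 as lower (Sema3c, Sema3f, Epha2, Plxnb2, Slit3 and Robo4, the last at a log2 ratio of -0.27). In the same setting 2043 of all 20079 features passed as higher and 2155 as lower, so the counts rose for features in general.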

How the data were processed

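The deposited scanner files, 1 for each of 6 2-colour arrays of 60-mer probes, held spot and background intensity for both dyes. The authors read them with Agilent Feature Extraction, version 7.5.1 for replicates 1 and 2 and 6.1.1 for replicate 3, per the file headers, where the labels name a single version. The same files hold log10 ratios of Cy5 over Cy3, made by the software after background subtraction and dye normalisation, per the file headers. The deposited value table equals these ratios with the sign turned, and its column medians were 0, 0.00187, 0, 0.00274, 0.00257 and 0. Replicate 3 is the pair of arrays without a number in the labels. From 500 ng of total RNA per sample, 750 ng of each labelled cRNA was hybridised for 17 hours, per the labels.

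With limma 3.58.1 in R 4.3.3, intensities were background-corrected (normexp, offset 50) and loess-normalised within arrays, control and outlier spots having weight 0. Log2 ratios were given the sign of CD34+ over CD34-. Values were averaged over spots of a probe and then over the 2 arrays of a replicate, and the brightest probe stood for a gene. A filter asked that 1 population be well above background in 2 or more of 3 replicates, which removed 472 of 20868 probes, and 182 more lacked an array because of an outlier mark. The limma functions lmFit and eBayes tested the mean ratio of all 20079 features against 0, with Benjamini-Hochberg adjustment. The populations are paired within each array by the labels. The number of arrays limits the precision, and whether replicates came from separate animals is not stated, so p-values may measure technical spread in part. The fit was tested on simulated data.

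The genes and lists were chosen with earlier results of these data known. Named are the genes that passed, those with the largest absolute log2 ratios, and the 4 largest partners in each direction that passed. From each family without a pass, the gene with the smallest limma adjusted p is named. Others named, such as Sema4a, Sema6b, Plxna1, Ntng2 and probes described in words, were chosen after their values were seen. Symbols came from a RefSeq table (GRCm38.p6) through the accession for 8947 probes, from the description for others, and 11229 probes stay unnamed. Of the 48 genes, 39 have an entry in the RefSeq promoter table. The 18 alternatives, among them other background, normalisation, filter, dye, batch and replicate choices, are compared in the closing section.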

Additional observations from a re-analysis of the deposited data

How the results depend on the processing

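The 4 axon guidance genes that passed kept their sign in all 18 alternatives, and the median log2 ratio of all 46 genes moved by less than the spread between replicates. The count of axon guidance genes higher in CD34+ cells (2) fell to 1 with CD34+ in Cy5 only and to 1 with no replicate block, and was 5 with a batch term for the software version. The count lower (2) was 4 with 6 arrays, a dye term and the replicate as a random block, and 6 with the batch term. The partner list (7 higher, 5 lower) had 2 higher and 0 lower with no replicate block (12 at an unadjusted limma p under 0.05), 12 and 13 with the batch term, 10 lower with 6 arrays, and 2, 1 and 3 lower with median centring, scaling between arrays and CD34+ in Cy3 only. All features (1086 higher, 1334 lower) gave 280 and 269 with no replicate block, 1952 and 2302 with 6 arrays, and 2573 and 2732 with the batch term. Treating the populations as separate channels, without the pairing of a replicate, ended the calls of Sema3b (adjusted p 0.0825), of the probes described as semaphorin 5B and UNC5H2 homolog (0.152 and 0.157) and of the alpha-6 integrin probe (0.0825), and not those of Sema3e, Sema3c, Sema3f, M-Sema F, the semaphorin 3D homolog or the plexin 2 probes. Leaving out 1 replicate at a time gave 0 to 3 axon guidance genes higher and 0 to 6 lower, 0 to 10 and 0 to 6 partners, 0 to 3 of the probes described in words in each direction, and 0 to 2043 and 0 to 2155 of all features. Without replicate 1 limma passed 0 features, with 4615 at an unadjusted p under 0.05. The log2 ratio of Robo4 ran from -0.2689 without replicate 3, where it passed, to 0.03283 without replicate 1, with a changed sign without replicates 1 and 2, where it did not pass. The batch term is the contrast of replicate 3 with the other replicates. It leaves the log2 ratios as they were, and the spread in that fit comes from replicates 1 and 2 alone. The cause of the other differences was not tested, beyond the fewer replicates in the fits that leave one out. The probes of Sema3a, Dcc and Nrp1 were well above background on 1 to 4 of 6 arrays in each population, which limits what can be measured there.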
